A study of Bos taurus with 4 samples.

Results

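The RNAs of the cytoplasmic actins and of proteins that bind actin were measured in sperm of Murrah buffalo bulls that differed in field fertility. The set holds 10 genes, ACTB, ACTG1, TMSB4X, TMSB10, PFN1, CFL1, CAPZB, ARPC2, ARPC3 and CAPZA3. Every non-control probe that carries 1 of these names on the array was taken, which gave 35 of 51282 probes. The high-fertile group consisted of 2 pools and the low-fertile group of 2 pools, each made of equal amounts of sperm RNA from 2 breeding bulls that had been ranked by field conception rate. The labels name no treatment and no age for either group. Every pool held RNA of Percoll-selected spermatozoa. A pool is the mean of its bulls, so the spread between pools does not show the spread between bulls. The array was designed on cattle genes and was hybridised with buffalo RNA, although the labels give the organism as Bos taurus, and a base that differs between the species can lower the signal of a probe. The signal is the brightness of a spot after background subtraction, in arbitrary intensity units. The normalized log2 signal is its log2 minus the 75th percentile of that array. A probe was called well above background as the scanner software marked it.

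Actin exists as monomers and as filaments. Thymosins hold monomers in reserve, profilin feeds them to growing ends and cofilin severs old filaments and returns monomers to the pool. Capping proteins close filament ends, and the Arp2/3 complex starts a branch on the side of an existing filament. In spermatogenesis actin filaments take part in shaping the head and acrosome, and in mature sperm actin polymerises during capacitation and depolymerises around the acrosome reaction. CAPZA3 is the testis form of the capping protein alpha subunit, CAPZB is its beta partner, and both belong to the calyx of the sperm head. Spermatozoa transcribe little or nothing, so their RNA is largely left over from spermatogenesis.

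The array carries overlapping probes for the same gene that differ at single bases, and these are shown because a reader can set their letters beside their background marks and group differences. The first pair covers TMSB4X, the 30 bases shown being part of each probe, with the differing bases in capitals and the names giving the first base of the probe in its target transcript.
TMSB4X 458: tgcggActgtaaaatgcagtttaatTGgag
TMSB4X 462: tgcggGctgtaaaatgcagtttaatCAgag
Counted from 1 at the 5′ end of the stretch, with the probe at 458 first, the differences are A6G, T26C and G27A. Both probes were well above background on all 4 arrays.
TMSB10 363: cggactgccaaatttTtccggtttgccctg
TMSB10 367: cggactgccaaatttCtccggtttgccctg
Here the overlap of 56 bases holds 1 difference, T16C in the stretch shown. The probe at 363 was well above background on 1 array and the probe at 367 on all 4.
ACTG1 1589: cagagctgcctattcCaggatttctctaga
ACTG1 1590: cagagctgcctattcTaggatttctctaga
These differ by C16T, and each was well above background on 1 array, high-fertile pool 1. The next stretches are the first 30 bases of the ARPC2 probe and the ACTG1 probe that were lower in the low-fertile pools.
ARPC2 1081: ttggaaaataatctgcaaaaacgagctgtg
ACTG1 1758: gttacttgccttgagttggaaacagtttgc

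The comparison asked which of these RNAs differed with the fertility of the bulls. ARPC2, a subunit of the Arp2/3 complex, was 2.33-fold lower in the low-fertile pools, and TMSB4X, the main monomer-sequestering thymosin, was 1.51-fold lower. The ARPC2 call held when any 1 pool was left out, and the TMSB4X call was lost each time. Of the ACTG1 probes, 1 also passed as lower, being dim in both low-fertile pools. ACTB, PFN1 and CFL1 gave no call in either direction. The RNA of CAPZB and CAPZA3 was not well above background in any pool. Of the 35 probes, 11 were well above background on all 4 arrays, 14 on some arrays and 10 on none. The 16 probes that were well above background in both pools of at least 1 group were tested, and they belong to 7 genes. Across the array 41.0% of probes met that condition, against 45.7% here. Of the 16, 4 passed an adjusted p of 0.05 in limma, all lower in the low-fertile pools, which is 25%. The background was 26.8% of the 21033 probes tested, with 17.6% lower and 9.22% higher, so the share among these probes was close to that of the array. Of the 7 brightest probes, 2 passed, both lower, against 25.9% of all genes tested by their brightest probe (16.3% lower and 9.6% higher). The median difference of the 16 probes was -0.00 on the log2 scale, as over all tested probes, and the median size of the difference was 0.30 against 0.37. Of the 16, 5 had both low-fertile pools below both high-fertile pools in normalized log2 signal and 4 had them above, where the background was 35.5% and 33.6%. Of the tested probes, 5 were tested through the high-fertile pair alone, and a probe of that kind could pass with a low value in the other group, so these counts describe the probes and support nothing further.

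**Figure D1:**
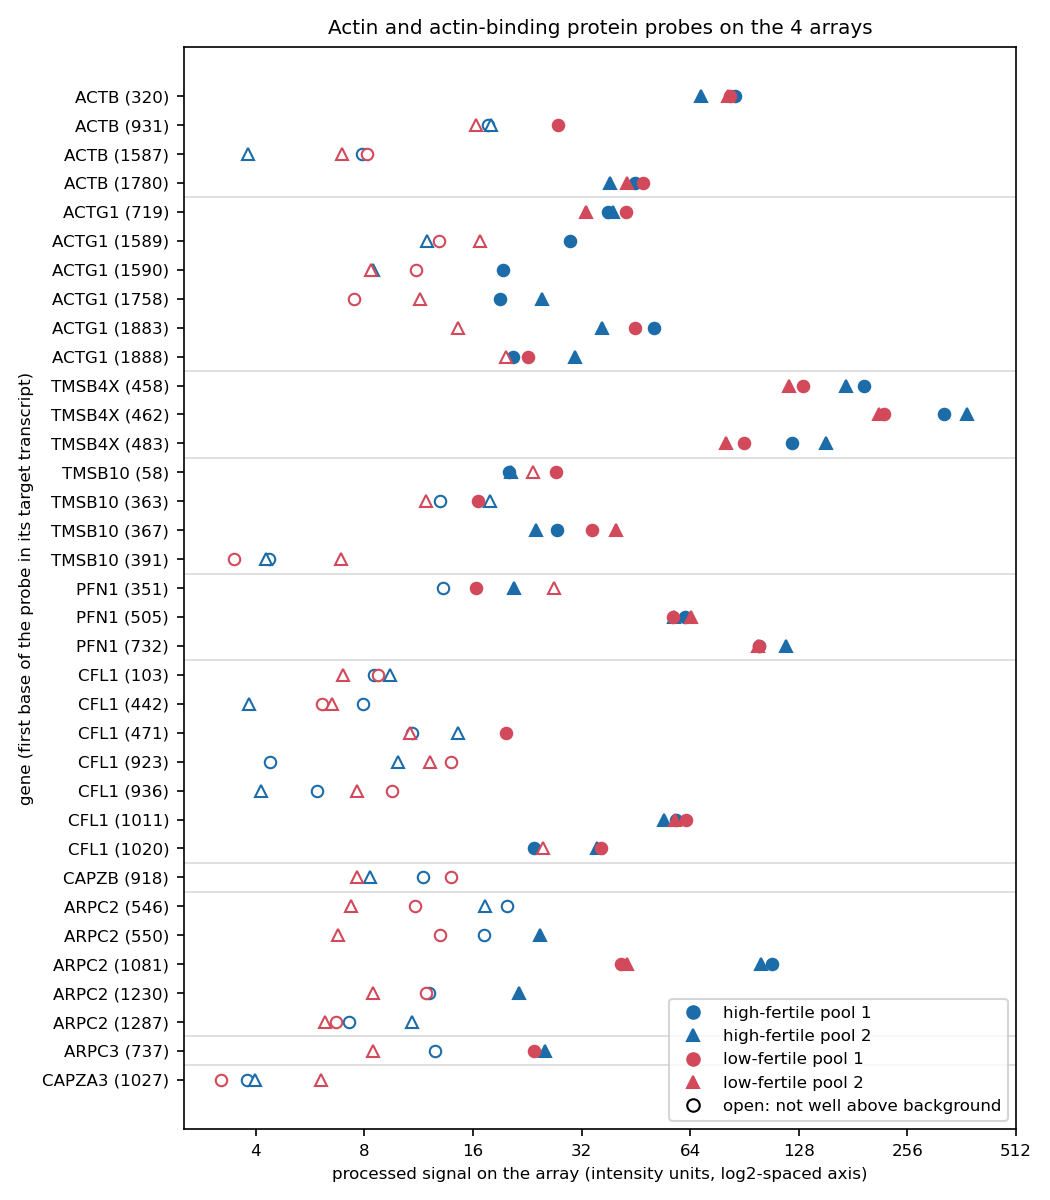
Processed signal (intensity units, log2-spaced axis) of each of the 35 probes in the 2 high-fertile (blue) and 2 low-fertile (red) pools, 1 point per pool, with open points not well above background; probes are named by gene and first base in the target transcript. The ARPC2 probe at 1081 has both low-fertile pools near 42 units and both high-fertile pools above 100 units, and the CAPZB and CAPZA3 probes have open points only.

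The 4 arrays lay on 1 slide and were scanned together, with row 1 taken by the high-fertile pools and row 2 by the low-fertile ones, so position and fertility group cannot be told apart. Low-fertile pool 2 had 13033 probes well above background, against 23228 to 25642 on the other arrays, and its negative control spots had a standard deviation of 126 units against 1.94 to 27.8. Of the 35 probes, 11 were well above background in that pool and 18 to 20 in the others. Pools of the same group correlated at 0.98 over the 12552 probes measured on all arrays, and pools of different groups at 0.92 to 0.93. With 2 pools against 2, an exact permutation test of a single value cannot go below a two-sided p of 0.333. Each adjusted p below comes from limma, in which all probes share information on the spread, except where the t-test is named. The t-test took the spread of each probe alone. When arrays were centred on 7 spike-in probes instead of the 75th percentile, the median of all tested probes moved to -0.38, and the calls over the array moved from 3692 lower and 1940 higher to 6750 lower and 578 higher. The differences below are relative to the bulk of the array and not amounts per cell. Fewer cells that hold an RNA and less of it in each cell cannot be told apart in these pools.

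ACTB encodes beta-actin and ACTG1 gamma-actin, the 2 actins of non-muscle cells. Their proteins are nearly identical, so the coding sequences resemble each other and a probe for 1 may take up signal of the other. The ACTB probe at 320 (chromosome 25, 40636409 to 40636468, Btau_3.1, plus strand) had signals of 85.3 and 68.8 units in the high-fertile pools and 82.8 and 81.4 units in the low-fertile pools. These values overlapped. The difference of the normalized log2 signal, low minus high, was 0.19 (SE 0.18, 95% interval -0.26 to 0.63, adjusted p = 0.467). The ACTB probe at 1780 gave 45.1 and 38.3 units against 47.2 and 42.9 units, a difference of 0.20 (adjusted p = 0.384). On the normalized scale both low-fertile pools of this probe, at 0.35 and 0.39, were above the high-fertile pools, at 0.30 and 0.047. Both ACTB differences turned below 0 with the spike-in centring, at -0.19 and -0.17, and neither passed the test there. The probe at 931 was well above background in low-fertile pool 1 alone, at 27.5 units, and the probe at 1587 in no pool. Beta-actin thus gave signal in every pool at 2 places of its transcript, with no call at either, and the 95% interval at 1780 ran from -0.20 to 0.60.

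The ACTG1 probes did not give the same picture. At 719 (chromosome 19, 52749943 to 52750002, plus strand) the signals were 37.8 and 39.2 units in the high-fertile pools and 42.4 and 32.8 units in the low-fertile pools. The groups overlapped, with a log2 difference of 0.04 (SE 0.15, 95% interval -0.34 to 0.42, adjusted p = 0.860), which was below 0 under the normexp, spike-in, local spatial and GC corrections. At 1758 (52751177 to 52751236) the signals were 19.0 and 24.8 units against 7.47 and 11.4 units. The groups did not overlap, and neither low-fertile pool was well above background, so the difference rests on dim readings. By the estimate the signal was 2.21-fold lower in the low-fertile pools (log2 difference -1.15, SE 0.30, 95% interval -1.89 to -0.40, adjusted p = 0.0417). This call was lost when high-fertile pool 1 (adjusted p = 0.0801), high-fertile pool 2 (0.161) or low-fertile pool 1 (0.0768) was left out, and under the normexp background correction the difference was -0.22 (adjusted p = 0.0977). It was also lost under quantile normalization (-0.98, adjusted p = 0.114), with the percentile over bright probes (0.0528), an intensity trend (0.0544), the local spatial correction (0.0595), no filter on dim probes (0.231) and the t-test (0.265). At 1883 the signals were 50.7 and 36.3 units against 44.9 and 14.5 units, with the low value in low-fertile pool 2 (log2 difference -0.66, adjusted p = 0.342). Without that pool the difference was 0.06. The probe at 1888 shares 58 bases with it apart from 2 mismatches and gave a difference of -0.16 (adjusted p = 0.603). The overlapping probes at 1589 and 1590 were dim outside high-fertile pool 1 and were not tested. Of 6 ACTG1 probes, then, 4 were tested and 1 passed, and its probe is among the dim ones.

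TMSB4X encodes thymosin beta 4, which binds actin monomers 1 to 1 and keeps them from polymerising. Its 3 probes start between bases 458 and 483 of the transcript and lie on a sequence of the build with no assigned chromosome (3545 to 3629). They overlap, so they are repeat readings of 1 stretch of RNA and not 3 independent measurements. The brightest, at 462, gave 324 and 376 units in the high-fertile pools and 221 and 213 units in the low-fertile pools. The groups did not overlap, and the 2 spots of this probe on an array were within 1.08-fold of each other. The log2 difference was -0.60 (SE 0.16, 95% interval -0.99 to -0.21, adjusted p = 0.0416), and the low-fertile level was 66.0% of the high-fertile level. At 483 the signals were 122 and 153 units against 90.3 and 80.7 units, a log2 difference of -0.59 (adjusted p = 0.04996). This call was at the edge of the threshold and was lost with outlier spots kept (0.0506), in the deposited table (0.0501), under quantile normalization (0.0590), and without each pool in turn (0.0760 to 0.215). At 458 they were 194 and 173 units against 131 and 120.4 units, a difference of -0.46 (adjusted p = 0.0760). The group order was the same in all 3, and the probe at 458 missed the threshold.

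The TMSB4X call at 462 rested on all 4 pools. Leaving out high-fertile pool 1 gave an adjusted p of 0.0935, leaving out high-fertile pool 2 gave 0.185, and dropping low-fertile pool 1 or 2 gave 0.108 or 0.0766, with log2 differences of -0.50 to -0.70. With the correction for GC content of the probe the difference was -0.27 (adjusted p = 0.451). One further probe, named TMSB4 on the array and assigned to the same transcript at 146, gave 59.4 and 54.1 units against 55.6 and 22.9 units (log2 difference -0.58, adjusted p = 0.276). It overlapped between the groups, and its low value came from low-fertile pool 2, where it was not well above background.

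TMSB10 encodes thymosin beta 10, a close relative that also binds monomers. The probe at 367 (chromosome 11, 51854965 to 51855024, minus strand) gave 27.4 and 23.9 units in the high-fertile pools and 34.2 and 39.8 units in the low-fertile pools. Both low-fertile pools were above both high-fertile pools, opposite in order to TMSB4X. The log2 difference was 0.61 (SE 0.19, 95% interval 0.13 to 1.101) and missed the threshold (adjusted p = 0.0690). When only the probes measured on all 4 arrays were tested, the adjusted p was 0.0313, without low-fertile pool 1 it was 0.0422, and with the GC correction it was 0.0384. The probe at 58, at the other end of the transcript, gave 20.1 and 20.4 units against 27.2 and 23.5 units, a log2 difference of 0.41 (adjusted p = 0.0818). Of the remaining 2, the probe at 363 shown above reached the background mark in 1 pool at 16.5 units, and the probe at 391, which lies within the same stretch with no mismatch in 36 shared bases, reached it in none.

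PFN1 encodes profilin 1, which loads monomers with ATP and delivers them to filament ends. The probe at 732 (chromosome 19, 26824361 to 26824420, plus strand) gave 99.2 and 118 units in the high-fertile pools and 99.4 and 98.6 units in the low-fertile pools. The log2 difference was -0.04 (SE 0.16, 95% interval -0.45 to 0.37, adjusted p = 0.863), and it was above 0 under the normexp, local spatial and GC corrections. The probe at 505 gave 62.0 and 57.8 units against 57.5 and 64.5 units, a log2 difference of 0.11 (adjusted p = 0.670). Profilin 1 was thus well above background in every pool at 2 places, and the groups overlapped at both. The third probe, at 351, was well above background in 2 of the 4 pools.

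CFL1 encodes cofilin 1, the non-muscle severing protein. It had 7 probes, more than any other gene of the set, and 2 were tested. The probe at 1011 gave 58.4 and 54.0 units in the high-fertile pools and 62.2 and 58.1 units in the low-fertile pools. These signals overlapped, while on the normalized scale the low-fertile pools, at 0.75 and 0.83, were above the high-fertile pools, at 0.67 and 0.54 (log2 difference 0.18, SE 0.15, 95% interval -0.18 to 0.55, adjusted p = 0.387, and -0.19 with the spike-in centring). The probe at 1020 gave 23.6 and 35.3 units against 36.3 and 24.9 units, a difference of 0.14 (adjusted p = 0.684). Of the other 5 probes, 4 were well above background in no pool, and the probe at 471 in low-fertile pool 1 alone, at 19.8 units. Only the probe at 103 has a position in the files, on chromosome 29 (45872177 to 45872236, minus strand), and it was one of the dim ones.

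The capping proteins were measured by 1 probe each. CAPZB at 918 (chromosome 2, 137960891 to 137960950) gave 11.7 and 8.31 units in the high-fertile pools and 13.9 and 7.65 units in the low-fertile pools. CAPZA3 at 1027 (chromosome 5, 98018886 to 98018945, minus strand) gave 3.78 and 3.98 units against 3.21 and 6.05 units. None of these 8 readings was well above background, so neither gene has a level or an order of the groups here. The CAPZA3 probe gave the lowest reading among the 35 probes, at 3.21 units. With 1 cattle probe each, low RNA and poor binding of buffalo RNA to the probe cannot be told apart.

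ARPC2 encodes the p34 subunit, which with ARPC4 forms the core of the Arp2/3 complex. The probe at 1081 (chromosome 2, 110685068 to 110685127, plus strand) gave 108 and 101 units in the high-fertile pools and 41.2 and 42.8 units in the low-fertile pools. The groups were far apart compared with the spread within either. The log2 difference was -1.22 (SE 0.16, 95% interval -1.62 to -0.82, adjusted p = 0.00581), which put the low-fertile level at 42.9% of the high-fertile level. The call held without each of the pools in turn, with log2 differences of -1.104 to -1.341 and adjusted p of 0.0122 to 0.0359. It was lost without a filter on dim probes (0.136), in the methods' t-test (0.106) and, narrowly, for the median of all 5 ARPC2 probes (-0.96, adjusted p = 0.0535). The other 4 probes were well above background in at most 1 pool and were not tested. Their log2 differences were -1.05 at 550, -0.95 at 546, -0.60 at 1230 and -0.38 at 1287. In each of them both low-fertile readings were below both high-fertile readings, though most of these readings were not well above background, and the probes at 546 and 550 overlap. The files place this pair over 110674673 to 110680187, far more than the length of a probe, so each crosses a splice junction.

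ARPC3, the p21 subunit of the same complex, had 1 probe, at 737 (chromosome 17, 57091817 to 57091876, minus strand). It gave 12.5 and 25.3 units in the high-fertile pools and 23.6 and 8.45 units in the low-fertile pools. It was well above background in 1 pool of each group, the readings overlapped, and it was not tested.

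**Figure D2:**
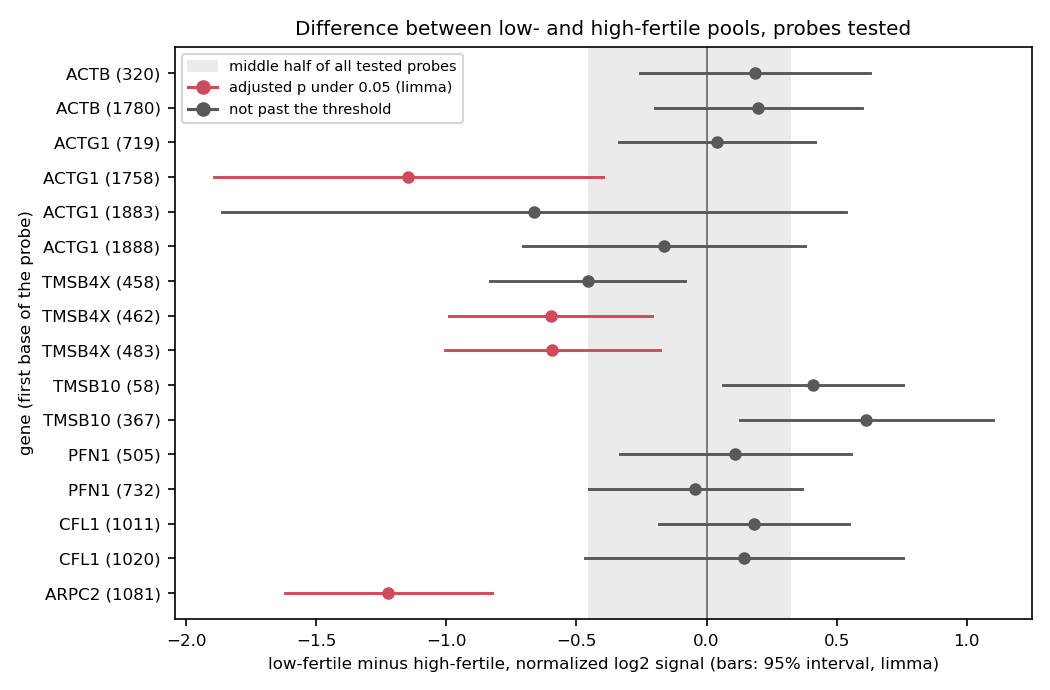
Low-fertile minus high-fertile difference of the normalized log2 signal for the 16 probes tested, with the 95% interval from limma (bars), red where the adjusted p was under 0.05; the grey band spans the middle 50% of all 21033 tested probes, from -0.45 to 0.32. ARPC2 at 1081 and ACTG1 at 1758 have the largest falls, at -1.22 and -1.15, and TMSB10 at 367 the largest rise, at 0.61, which missed the threshold.

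The rest of the actin system was read from 9 lists that hold 166 further genes by role, of which 155 are named on the array and 106 were tested by their brightest probe. Relative to the high-fertile pools, 15 of the 106 were lower and 8 higher, which is 21.7%. Of all genes tested 25.9% passed, 16.3% lower and 9.6% higher, and these shares are the background for each list below. The median log2 difference of the 106 was -0.09, against 0.01 over all genes. Of the 106, 38 entered the test through 1 pair of pools only, and a gene of that kind that passed had been selected on the group where it is high. This holds for 6 of the 23, for PFN2, CAP2, TPM4, CALD1 and MYL12A through the high-fertile pair and for LMOD2 through the low-fertile pair, and their p-values and directions are given as a description. Of the 68 genes well above background in all pools, 10 were lower and 7 higher, and no share over all genes of this kind was taken. When only probes well above background on all arrays were fitted, 22 genes of these lists passed. In that fit 34.6% of the 12552 probes of the array passed, 1625 lower and 2714 higher. All 23 genes called in the main fit kept their direction in every alternative processing that gave their brightest probe a value. The median over a gene's probes is not part of that count. It can differ in direction, as for LIMK2, whose probes were at -0.57 and 1.74. Without high-fertile pool 1, 14 genes of these lists passed, without high-fertile pool 2, 11, and when the low-fertile pools 1 and 2 were left out, 14 and 16. CAP1, ACTR3B, ARPC1A and VCL, well above background in all pools, passed with each pool left out. PFN2, CAP2, CALD1 and LMOD2 passed each time too, but had entered the test through 1 pair of pools only. The same 21033 probes were tested in each of these fits, so that selection remained and the passing of PFN2, CAP2, CALD1 and LMOD2 is a description. The other called genes missed the threshold without at least 1 pool.

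Among the other monomer-binding proteins, 3 of 5 tested genes passed as lower and none as higher. PFN2 and CAP2 entered the test through the high-fertile pair alone, so this count is a description. The brightest of the list, PFN3, a profilin of the testis, had 157 and 263 units in the high-fertile pools and 376 and 338 units in the low-fertile pools, with the low-fertile pools above (log2 difference 0.90, adjusted p = 0.0550), and missed the threshold. PFN2, the profilin best known from neurons, had 36.5 and 33.9 units in the high-fertile pools and 12.4 and 9.20 units in the low-fertile pools. It was not well above background in the low-fertile pools, and by the estimate it was 3.105-fold lower there (adjusted p = 0.00316). CAP1, which recharges monomers released by cofilin, had 131 and 133 units against 46.2 and 40.1 units (log2 difference -1.53, adjusted p = 0.00275), and its second tested probe fell by 1.33 on the log2 scale. CAP2, its relative, was at -1.18 (adjusted p = 0.00816).

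Of the other Arp2/3 subunits and activators, 3 of 16 tested genes were lower and 2 were higher. ARPC1A, a subunit, had 226 and 232 units in the high-fertile pools and 87.4 and 78.6 units in the low-fertile pools (log2 difference -1.38, adjusted p = 0.00331). Its other tested probe was at -0.43. ACTR3, the actin-related subunit Arp3, was at -0.98 (adjusted p = 0.0257), but its other 2 tested probes lay between -0.35 and -0.02. ACTR3B, a variant of Arp3, was higher by 1.18 (adjusted p = 0.00762). CTTN, cortactin, which stabilises branches, was higher by 0.52 (adjusted p = 0.0475). This call was lost with the percentile over bright probes, normexp, spike-in centring and the deposited table. It was also lost with pool number as a block and with the local spatial and GC corrections. WASL, the N-WASP activator, was at -0.60. The other tested subunits, ACTR2 at 0.03, ARPC1B at 0.09, ARPC4 at -0.18 and ARPC5L at 0.30, did not pass. ARPC2, ARPC1A and ACTR3 were thus lower, ACTR3B was higher, and 4 tested subunits gave no call.

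Among the severing proteins and cofilin regulators, 2 of 15 were lower and 1 higher. Gelsolin (GSN) had 64.0 and 73.5 units against 33.2 and 31.6 units (log2 difference -0.997, adjusted p = 0.00878). LIMK1, a kinase that inactivates cofilin, was at 0.60 (adjusted p = 0.0403) and LIMK2 at -0.57 (0.0409), though the second LIMK2 probe was at 1.74. Both calls were lost with pool number as a block and with the local spatial and GC corrections. The LIMK1 call was also lost with normexp and spike-in centring. WDR1 had a log2 difference of -3.01 that rested on 1 array, with 2211 units in high-fertile pool 1 and 29.3 to 30.9 units in the others (adjusted p = 0.278). Of the 10 formins and other nucleators tested, DIAPH1 was lower (-0.93, adjusted p = 0.0138) and FMNL3 higher (0.89, 0.0274). Among 7 other capping genes LMOD2, a leiomodin of muscle, was by the estimate 3.41-fold higher in the low-fertile pools. It was dim in both high-fertile pools and entered the test through the low-fertile pair alone. CAPZA2, an alpha subunit that can pair with CAPZB, was at 0.01, and CAPZA1 was not tested.

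Vinculin (VCL), which ties filaments to adhesion sites, had the largest fall of any gene that passed in these lists. Its signals were 158 and 186 units in the high-fertile pools and 34.3 and 33.1 units in the low-fertile pools (log2 difference -2.26, SE 0.16, adjusted p = 0.00221). The other 2 tested probes of the gene gave -0.99 and -0.12. SPTBN1, a spectrin, fell as well (-0.87, adjusted p = 0.0112), and TLN1, the vinculin partner talin, was higher by 1.15 (0.0123), the remaining 13 of 16 tested linkers giving no call. Of 13 tropomyosin and myosin genes, 4 were lower and 2 higher, against 16.3% and 9.6% of all genes tested. Of the 4, TPM4, CALD1 and MYL12A entered the test through the high-fertile pair alone, so this count is a description. The tropomyosins, which coat filaments, split, with TPM1 at 0.93 (adjusted p = 0.0107) and TPM2 at 0.66 (0.0315) against TPM3 at -0.88 and TPM4 at -0.66. The other tested TPM1 probes gave -0.02 and 0.13. Caldesmon (CALD1) was at -1.17 and the myosin light chain MYL12A at -1.08, while the other tested CALD1 probes ran from -1.88 to 0.74. None of the 14 other actins and actin-related proteins passed.

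**Figure D3:**
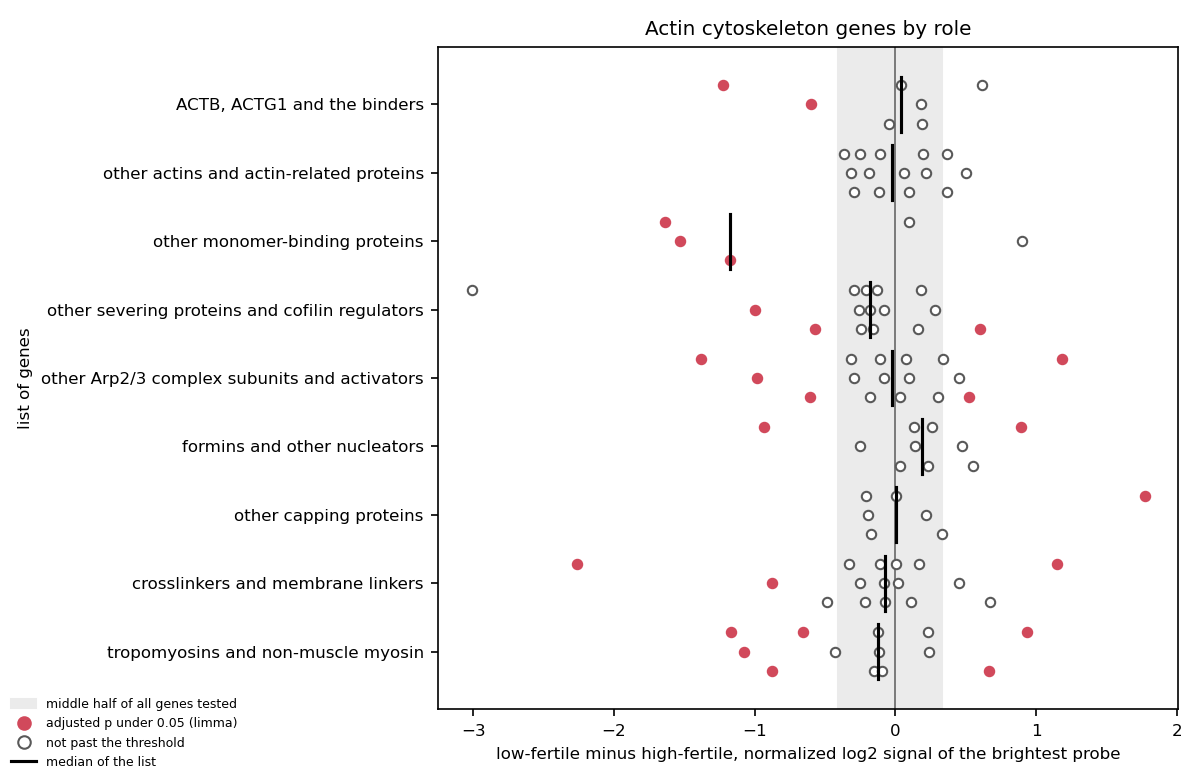
Low-fertile minus high-fertile difference of the normalized log2 signal of the brightest probe, for each tested gene of 8 of the 9 lists and, in the top row, the 7 tested genes of the set, red where the adjusted p from limma was under 0.05, with the list median as a bar and the middle 50% of all genes tested in grey, from -0.41 to 0.33. The medians lie within the grey band except that of the 5 other monomer-binding proteins. That median, at -1.18, is the value of CAP2, which entered the test through the high-fertile pair alone. VCL is the farthest red point at -2.26.

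Markers of the cells that semen can hold were read in the same way. Of 17 sperm markers on the array, 4 were well above background in every pool (PRM1, TNP1, ODF1 and ACR) and 6 in none (AKAP4, SMCP, LDHC, CYLC1, CYLC2 and CCIN). Of the 7 tested, PRM1, protamine 1, was higher in the low-fertile pools by 0.67 on the log2 scale (adjusted p = 0.0231). The summed level of the sperm list, in multiples of the 75th percentile, was 27.1 and 23.4 in the high-fertile pools against 23.0 and 24.9 in the low-fertile pools. Of 9 tested leukocyte markers, PTPRC, which encodes CD45, was higher, with 6981 and 7126 units in the high-fertile pools and 11503 and 11388 units in the low-fertile pools (log2 difference 0.78, adjusted p = 0.0160). The summed leukocyte list was 223 and 226 against 342 and 384, and without PTPRC 32.5 and 34.3 against 31.5 and 35.2. S100A9 and CD3E were well above background in no pool. None of the 6 tested epithelial markers passed, the list summed to 28.7 and 29.5 against 30.6 and 34.3, and EPCAM and CDH1 were well above background in no pool. Of the 3 tested red cell markers HBB was higher by 1.24 (adjusted p = 0.0118), the list summed to 8.08 and 11.8 against 9.83 and 11.6, and ALAS2 was well above background in no pool. Leukocytes and epithelium are rich in ACTB, PFN1, CFL1 and TMSB4X, and 2 genes, LCP1 and CORO1A, stand in both an actin list and the leukocyte list. The part of other cells in the levels given here was not tested.

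**Figure D4:**
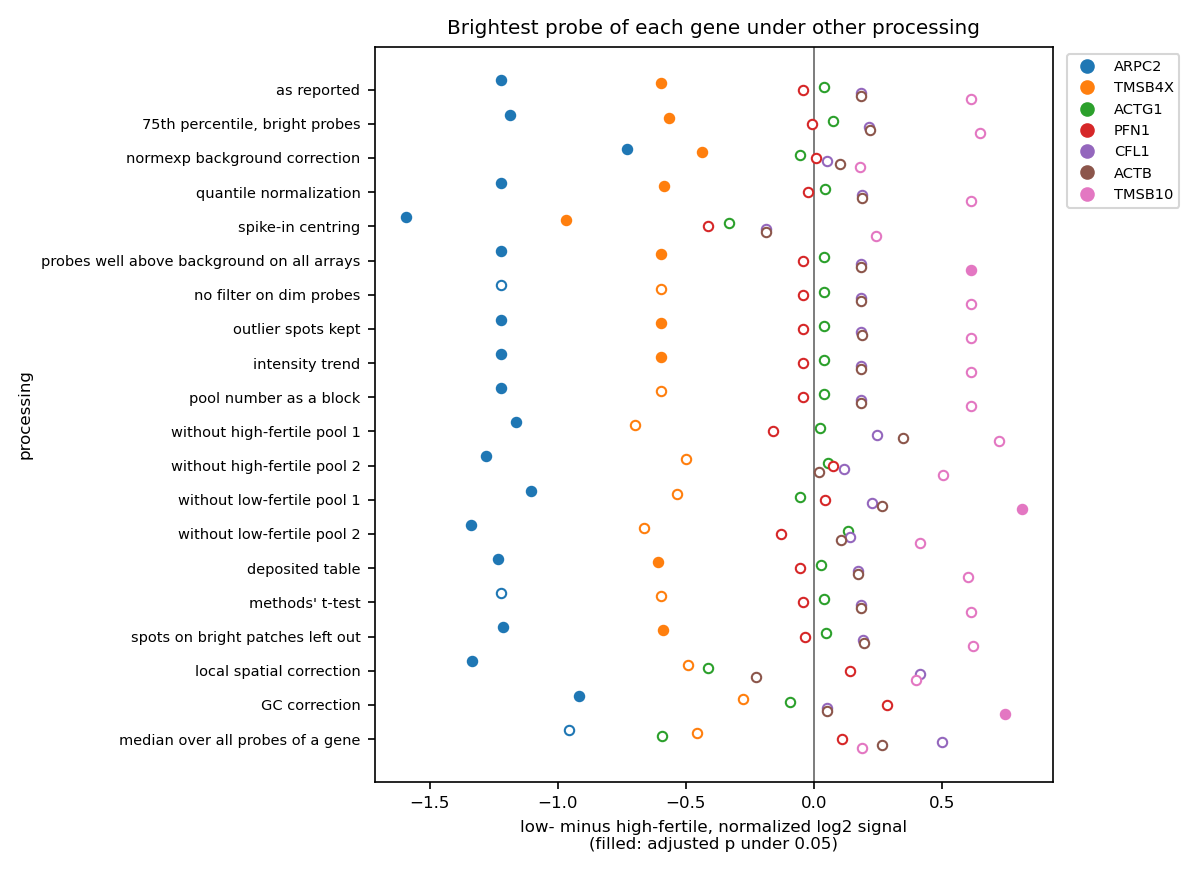
Low-fertile minus high-fertile difference of the normalized log2 signal of the brightest probe of the 7 tested genes (colours), under the processing reported and each alternative (rows), with filled points where the adjusted p was under 0.05. ARPC2 stayed between -1.59 and -0.73 and TMSB4X between -0.97 and -0.27, while ACTB, ACTG1, PFN1 and CFL1 lay on both sides of 0.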

How the data were processed

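Sperm RNA was primed with oligo-dT, amplified and labelled with Cy3, and each of the 4 pools was hybridised to 1 bovine Agilent array. The deposited scanner files hold linear intensity values from Feature Extraction 11.5.1.1, background-subtracted by the authors' software, with coordinates of HGSC Btau_3.1. The deposited value table holds log2 values that the authors shifted by the 75th percentile in GeneSpring GX 12.6. It served as an alternative. Arrays give no read depth, and their number limits the precision.

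Outlier spots were left out, spots of a probe were averaged on the log2 scale, and each array was centred on its 75th percentile, taken without control probes (Python 3.11.15, pandas 2.3.3, numpy 2.4.6, scipy 1.17.1). A probe entered the test if both pools of 1 group or the other were marked well above background, and the 21033 such probes were fitted with limma 3.58.1 in R 4.3.3 (lmFit, eBayes, Benjamini-Hochberg over all of them). The brightest probe, by its mean over the pools, stood for a gene. Where 1 group was dim, the fold given is the estimate from its readings and not a bound. No probe of the set was saturated or an outlier, and 33 of the 35 probes matched a current RefSeq gene symbol by accession. No base position in a transcript was assigned to an exon or untranslated region, since no annotation of that build was used here.

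The set and the lists were chosen with earlier results of these data known. From each list the 2 largest rises and 2 largest falls past the threshold were named, and the further genes (PFN3, CAP2, WASL, TPM3, TPM4, WDR1 and the subunits without a call) after their values were seen. One list counts in the totals but is not reported here on its own. The methods' t-test was an alternative. Alternatives covered the percentile, background correction, quantile and spike-in normalization, filters, outlier spots, variance trend, pool number as a block, each pool left out, position, GC content and the choice of probe. The p-values measure the spread between pools only.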

Additional observations from a re-analysis of the deposited data

How the results depend on the processing

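The 4 called probes became 2 with the percentile over bright probes, 0 with no filter on dim probes, 0 in the methods' t-test and 1 with the local spatial correction, and 1 to 3 with each pool left out. At an unadjusted p of 0.05 the number of probes was 7 as reported, 5 with no filter and 4 in the t-test. The 2 called genes became 0 with no filter, in the t-test and when a gene was the median of its probes, and 1 with the local spatial correction. With each pool left out ARPC2 kept its call, at log2 differences of -1.34 to -1.10. TMSB4X lost its call each time, at -0.70 to -0.50. The 23 called genes of the other lists became 36 with normexp, 45 with spike-in centring, 0 with no filter and 0 in the t-test (27 and 31 at an unadjusted p of 0.05), 11 with probe medians, and 11 to 16 with a pool left out. These counts moved with the array as a whole. Over all probes fitted, 0 passed with no filter and 0 in the t-test, so these 2 settings show nothing particular to the actin genes. With normexp 34.7% of the array passed and with spike-in centring 34.8%, against 26.8% as reported. A smaller share of the array also passed with each pool left out. The pool number as a block left 2 called probes and 1 called gene, ARPC2 (adjusted p = 0.00701), while TMSB4X lost its call (0.0544). The TMSB4X probe at 483 lost its call with the block (0.0635), the percentile over bright probes (0.0704), the local spatial correction (0.0566) and the GC correction (0.236). The numbers mark no shared animal or day, and deviations of same-numbered pools correlated at 0.0055.

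Values that turned over were all uncalled before and after. A range below can also end on a value that did not turn. ACTG1 at 1883, at -1.39 without low-fertile pool 1, kept its direction and gained a call. Under normexp ACTG1 was -0.053, PFN1 0.0078 and ACTB at 1780 -0.024. Under spike-in centring ACTB was -0.19, ACTG1 -0.33, CFL1 -0.19, ACTB at 1780 -0.17, PFN1 at 505 -0.26 and CFL1 at 1020 -0.23. Under the local spatial correction ACTB was -0.23, ACTG1 -0.41, PFN1 0.14, ACTG1 at 1883 0.12 and ACTG1 at 1888 0.13. Under the GC correction ACTG1 was -0.092 and PFN1 0.29, and for probe medians ACTG1 was -0.59 and PFN1 0.11. With each pool left out in turn the values ran from -0.054 to 0.13 for ACTG1, -0.16 to 0.075 for PFN1, -1.39 to 0.059 for ACTG1 at 1883, -0.44 to 0.11 for ACTG1 at 1888, -0.064 to 0.28 for PFN1 at 505 and -0.14 to 0.43 for CFL1 at 1020. The causes were not tested. Of the other values, 219 kept direction and side of the threshold, 36 lost their call and 9 gained one. Background limits the dim probes: 19 of 35 could not be tested.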
